A study of Arabidopsis thaliana with 16 samples.

Results

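Aquaporins are channel proteins of the major intrinsic protein family, and the members of the family in Arabidopsis thaliana were followed through an ethylene treatment of dark-grown seedlings. The members were the 35 genes of the PIP, TIP, NIP and SIP subfamilies, found by gene identifier among the 33989 genes that the tables name. They comprise 13 PIP, 10 TIP, 9 NIP and 3 SIP genes, and names are written here with a hyphen (PIP2-7 for the gene AT4G35100). RNA of 3-day-old etiolated seedlings was sequenced as poly(A) libraries, 16 in all, from roots and shoots of the cbp20 mutant and of the wild type Col-0, which is the background of the mutant. Seedlings had received 10 ppm ethylene or hydrocarbon-free air for 4 h. The groups were therefore cbp20 root ethylene, cbp20 root air, Col-0 root ethylene, Col-0 root air, and the same 4 for shoots, with 2 libraries each. CBP20 is one of the proteins of the cap-binding complex of the nucleus, which binds the cap of transcripts made by RNA polymerase II and takes part in splicing and in the biogenesis of miRNAs. The labels give no allele for the cbp20 mutant and do not say whether the paired libraries came from separate cultures.

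Aquaporins let water cross membranes along an osmotic gradient, and several also pass hydrogen peroxide, ammonia, urea, boric acid or arsenite. The plasma membrane intrinsic proteins (PIPs) set much of the water permeability of root and leaf cells, and PIP1 proteins of many plants need a PIP2 partner to reach the plasma membrane. The tonoplast intrinsic proteins (TIPs) serve the vacuole, the NOD26-like intrinsic proteins (NIPs) carry small uncharged solutes such as boric acid, and the small basic intrinsic proteins (SIPs) reside in the endoplasmic reticulum. Ethylene is a gaseous hormone that shortens the hypocotyl and the root of dark-grown seedlings and exaggerates the apical hook, and cell elongation depends on water uptake into the vacuole.

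Each table held 1 value for each gene and group, in FPKM, the fragments mapped to a transcript scaled by its length and by the depth of the library, pooled by the authors over the 2 libraries of the group. No spread between libraries could be computed, so no difference below carries an SD or a test, and none was set against the spread between replicates. A member was counted as higher or lower in ethylene where the ratio of ethylene to air was at least 1.5-fold and either group held 1 FPKM or more. The same count over 31133 loci, all those with a gene name found at 1 place in the tables, gave the background. Root and shoot RNA came from whole organs, so fewer cells of a type and less RNA per cell cannot be told apart. FPKM is scaled by transcript length, so levels of different genes may be set side by side within a group.

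Of the 35 members, 30 reached 1 FPKM in at least 1 group, 28 reached 10 FPKM and 19 reached 100 FPKM. The remaining 5 stayed under 1 FPKM in every group and entered no count. Among them TIP1-3, TIP5-1 and NIP4-1, known from pollen, were listed at 0 in all 8 groups, and NIP4-2 and NIP7-1, known from pollen and anthers, were listed at 0.43 FPKM or less. SIP1-2 stood at 4 rows of the same interval and was left out of the counts, and PIP2-3 had a second row at or next to 0 in every group, so that its other row was used. The reads of PIP2-1 were given as 1 value together with its neighbour AT3G53410, a RING ubiquitin ligase gene, and those of NIP1-1 together with AT4G19040. Closely related members may also share reads. Coding sequences of PIP1-3 and PIP1-4 were 85.0% identical, those of NIP1-1 and NIP1-2 84.0% and those of PIP2-7 and PIP2-8 84.0%. The share was 83.3% for PIP2-1 and PIP2-3, 83.2% for PIP1-1 and PIP1-2, and 82.4% for the neighbouring genes PIP2-2 and PIP2-3. Gaps were counted as differences, and the coding sequence used was 987 bases long for PIP2-2 and 858 for PIP2-3. The share of that pair is lowered by this gap in length, so it does not rank below the other pairs in similarity.

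The levels of CBP20 fitted the labels. CBP20 stood at 0.51 FPKM in ethylene and 0.65 FPKM in air in cbp20 roots and at 0.99 FPKM in ethylene and 2.14 FPKM in air in cbp20 shoots, against 23.8 to 35.8 FPKM in the Col-0 groups. The 8 root markers summed to 774 to 1349 FPKM in the root groups and 228 to 326 FPKM in the shoot groups, and CASP1 of the endodermis made up most of both sums. The root marker SHR did not follow the sum in ethylene. It stood at 15.9 FPKM in roots and 16.2 FPKM in shoots in cbp20, and at 13.5 FPKM in roots and 16.1 FPKM in shoots in Col-0. The 6 shoot markers, led by the photosynthesis genes CAB1 and RBCS1A, summed to 96.5 to 457 FPKM in roots and 10939 to 15203 FPKM in shoots. Within roots their sum was 457 FPKM in ethylene and 348 FPKM in air in cbp20, and 96.5 FPKM in ethylene and 168.9 FPKM in air in Col-0. In roots 2 of the 8 root markers were higher in ethylene in both genotypes, the root hair genes COBL9 and EXPA7. PLT1 of the stem cell niche was counted as lower in cbp20 roots, at 0.54 FPKM in ethylene and 1.07 FPKM in air. In Col-0 roots PLT1 stood at 1.03 FPKM in ethylene and 0.72 FPKM in air, within the 1.5-fold limit. EXPA7 stood at 170 FPKM in ethylene and 73.3 FPKM in air in cbp20 and 149 FPKM in ethylene and 70.8 FPKM in air in Col-0. RHD6, a regulator of root hairs, was not counted as higher, at 12.8 FPKM in ethylene and 13.3 FPKM in air in cbp20 roots and 10.8 FPKM in ethylene and 8.98 FPKM in air in Col-0 roots, and the part of root hairs in the root values was not tested. All 8 root libraries were on the same sequencing lane, while the replicates of each shoot group were split over that lane and another, so that lane and organ are partly confounded.

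Promoter windows are shown for 5 PIP genes that stood at least 1.5-fold lower in ethylene in both organs of both genotypes, and for PIP2-2, the neighbour of PIP2-3 that did not do so in roots. Each window holds the 250 bases before the annotated gene start in RefSeq's TAIR10.1 assembly, read 5′ to 3′ on the strand of the gene. Capitals mark ATGTA on either strand (TACAT on the other), the core bound by EIN3, the transcription factor at the end of the ethylene signalling pathway.
PIP1-4 (chr4:187681-187930, minus strand): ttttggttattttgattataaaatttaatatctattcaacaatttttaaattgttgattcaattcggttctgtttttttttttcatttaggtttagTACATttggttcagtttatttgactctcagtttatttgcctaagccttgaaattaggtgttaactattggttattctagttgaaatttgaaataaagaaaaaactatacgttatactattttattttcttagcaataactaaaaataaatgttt
PIP2-1 (chr3:19805731-19805980, minus strand): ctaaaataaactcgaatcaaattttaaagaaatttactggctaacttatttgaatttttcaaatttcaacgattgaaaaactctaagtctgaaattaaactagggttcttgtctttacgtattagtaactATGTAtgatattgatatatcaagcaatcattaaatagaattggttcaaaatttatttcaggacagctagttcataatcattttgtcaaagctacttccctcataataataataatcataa
PIP2-3 (chr2:15617385-15617634, plus strand): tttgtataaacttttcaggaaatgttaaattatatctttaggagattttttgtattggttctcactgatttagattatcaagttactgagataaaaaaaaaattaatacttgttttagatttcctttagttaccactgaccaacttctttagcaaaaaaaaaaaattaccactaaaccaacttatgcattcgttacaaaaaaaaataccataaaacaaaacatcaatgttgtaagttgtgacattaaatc
PIP2-6 (chr2:16291030-16291279, plus strand): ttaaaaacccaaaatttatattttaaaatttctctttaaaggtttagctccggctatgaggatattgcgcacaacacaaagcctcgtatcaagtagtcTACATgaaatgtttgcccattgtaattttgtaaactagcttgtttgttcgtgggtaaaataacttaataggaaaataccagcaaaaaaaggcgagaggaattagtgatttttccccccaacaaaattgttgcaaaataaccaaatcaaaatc
PIP2-7 (chr4:16708111-16708360, plus strand): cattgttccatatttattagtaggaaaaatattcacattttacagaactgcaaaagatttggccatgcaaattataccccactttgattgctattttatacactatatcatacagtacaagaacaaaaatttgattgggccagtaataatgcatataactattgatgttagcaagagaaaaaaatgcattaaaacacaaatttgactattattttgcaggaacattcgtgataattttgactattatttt
PIP2-2 (chr2:15615023-15615272, minus strand): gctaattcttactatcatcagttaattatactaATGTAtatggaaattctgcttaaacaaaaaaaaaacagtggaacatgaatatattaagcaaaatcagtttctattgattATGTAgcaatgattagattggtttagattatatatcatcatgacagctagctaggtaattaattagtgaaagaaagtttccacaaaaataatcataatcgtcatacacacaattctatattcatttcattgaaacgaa

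The windows of PIP1-4, PIP2-1 and PIP2-6 held ATGTA once, that of PIP2-2 held it at 2 positions, and those of PIP2-3 and PIP2-7 lacked it. Over the family, 25 of 35 windows (71.4%) held ATGTA, against 52.0% of 27443 protein-coding genes with a window of the same length. The GCC box GCCGCC, the element bound by ethylene response factors, was found on either strand in 1 member window, that of TIP1-2, or 2.86%, against 1.87% of all windows. The G-box CACGTG was in none of the 35 windows and in 6.49% of all windows. The core ACGTG of abscisic acid response elements, which is part of the G-box and was also searched on both strands, was in 4 member windows (11.4%) and in 22.9% of all windows. The PIP2-2 and PIP2-3 genes lie head to head on chromosome 2, and both windows lie in the stretch between them. A match is a description of letters and not a site.

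The share of aquaporin genes that were lower in ethylene was above the background share in every table. Of the 13 PIP genes, 6 were lower in cbp20 roots, 7 in Col-0 roots, 11 in cbp20 shoots and 8 in Col-0 shoots. Of 8 counted TIP genes, 2 were lower in cbp20 roots, 3 in Col-0 roots, 4 in cbp20 shoots and 3 in Col-0 shoots, and the difference between the subfamilies was not tested. In cbp20 roots 10 of 29 members with 1 FPKM or more (34.5%) were lower, against 15.2% of all loci, and in Col-0 roots 12 of 29 (41.4%) were lower, against 15.4%. In cbp20 shoots 17 of 29 members (58.6%) were lower, against 21.4% of all loci, and in Col-0 shoots 12 of 28 (42.9%), against 21.7%. The share of higher members was near that of all loci except in Col-0 roots, where it was lower. In cbp20 roots 4 of 29 were higher (13.8%), next to 13.5% of all loci, and in Col-0 roots 2 of 29 (6.90%), next to 15.8%. In cbp20 shoots 4 of 29 were higher (13.8%), next to 15.7% of all loci, and in Col-0 shoots 4 of 28 (14.3%), next to 15.4%.

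The median log2 ratio of ethylene to air over the members was -0.21 in cbp20 roots, -0.49 in Col-0 roots, -0.67 in cbp20 shoots and -0.51 in Col-0 shoots, while the median over all loci lay between -0.01 and 0.02 in the 4 tables. The central 90% of all loci ran from -1.27 to 1.17 in cbp20 roots, from -1.28 to 1.28 in Col-0 roots, from -1.68 to 1.22 in cbp20 shoots and from -1.80 to 1.28 in Col-0 shoots. Many members are abundant, and loci at 100 FPKM or more in either group moved less often. At that level 6 of 17 members were lower in cbp20 roots (9.98% of such loci were) and 8 of 18 in Col-0 roots (12.3%). In shoots the counts were 12 of 16 in cbp20 (16.4%) and 7 of 15 in Col-0 (18.1%). No member at that level was higher in roots, where 10.5% of such loci were in cbp20 and 9.88% in Col-0. In shoots PIP2-4 was the 1 higher member at that level, among 12.6% of such loci in cbp20 and 10.8% in Col-0.

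The cbp20 and Col-0 libraries are separate, so each table stands on its own samples. In roots 10 of 29 members were lower in both genotypes, against 7.01% of all loci, and 1 was higher in both, against 6.64%. The 10 include TIP2-1, whose ratio in cbp20 roots rests on an air value of 51345 FPKM that stood apart from its other values. In shoots 10 of 28 members were lower in both, against 11.6%, and 4 were higher in both, against 6.00%. Lower in every table were 6 of 28 members, namely PIP1-4, PIP2-1, PIP2-3, PIP2-6, PIP2-7 and TIP3-1, against 3.13% of all loci. NIP2-1 was the 1 member higher throughout, against 1.76%, and it lost that place with a pseudocount of 1 FPKM, where its log2 ratio in cbp20 shoots was 0.37. The ratio lay below 1 in all 4 tables for 17 of the 28, and the share of all loci with that pattern was not computed. In a single table, 48.4 to 50.6% of all loci had a ratio below 1. Related members may share reads, so these shares describe the list.

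**Figure D1:**
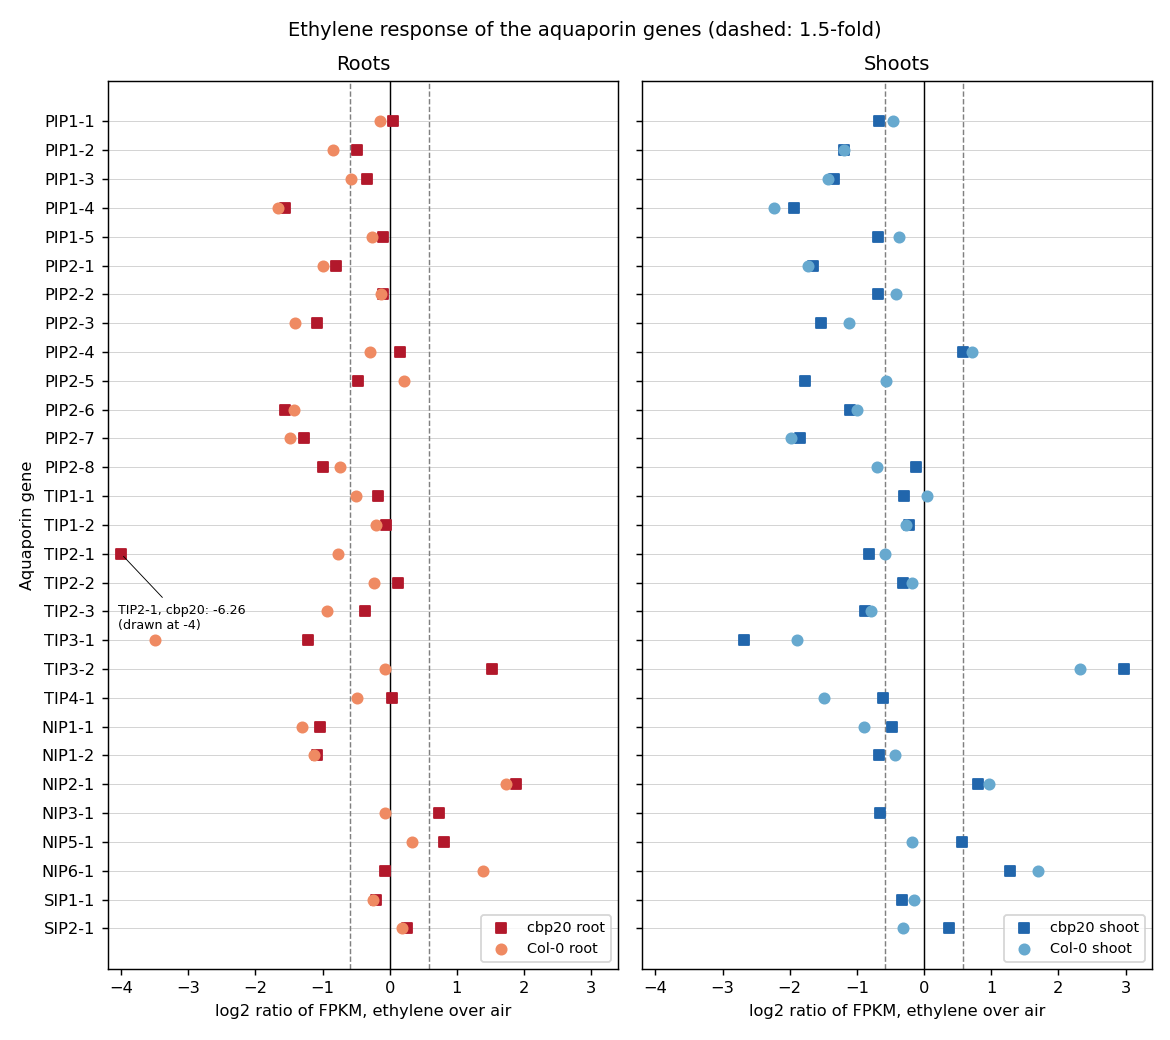
Log2 ratio of FPKM in ethylene over air (horizontal axis) for the 29 counted aquaporin genes that reached 1 FPKM, with roots on the left and shoots on the right. Squares are cbp20 and circles Col-0, each 1 ratio of pooled values, dashed lines mark 1.5-fold, and members under 1 FPKM in both groups of a table have no symbol there. PIP1-4, PIP2-1, PIP2-3, PIP2-6, PIP2-7 and TIP3-1 lie left of the dashed line in both panels for both genotypes, and TIP2-1 in cbp20 roots, at -6.26, is drawn at the edge.

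Among the PIP1 genes, PIP1-4 (AT4G00430), whose product also passes hydrogen peroxide, had the lowest ratio in every table. In roots PIP1-4 stood at 58.3 FPKM in ethylene and 172 FPKM in air in cbp20, and at 45.1 FPKM in ethylene and 144 FPKM in air in Col-0. In shoots it stood at 37.0 FPKM in ethylene and 142 FPKM in air in cbp20, and at 35.9 FPKM in ethylene and 168 FPKM in air in Col-0. The level in ethylene was thus 2.96-fold lower in cbp20 roots, 3.18-fold lower in Col-0 roots, 3.83-fold lower in cbp20 shoots and 4.69-fold lower in Col-0 shoots. Between 3.01% and 3.74% of all loci had a ratio below that of PIP1-4, depending on the table.

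PIP1-2 (AT2G45960), a main contributor to the water permeability of roots and rosettes, was the most abundant PIP1 gene of both shoot air groups. PIP1-2 in roots was at 2839 FPKM in ethylene and 3976 FPKM in air in cbp20 and at 2327 FPKM in ethylene and 4199 FPKM in air in Col-0. The shoot values were 1034 FPKM in ethylene and 2369 FPKM in air in cbp20, and 1226 FPKM in ethylene and 2805 FPKM in air in Col-0. It was 2.29-fold lower in cbp20 shoots and 2.29-fold lower in Col-0 shoots, and in roots 1.40-fold lower in cbp20, under the 1.5-fold limit, and 1.80-fold lower in Col-0. PIP1-3 (AT1G01620) passed the limit in shoots alone. PIP1-3 had 1079.8 FPKM in ethylene against 1359.5 FPKM in air in cbp20 roots, and 979 FPKM in ethylene against 1465 FPKM in air in Col-0 roots. Shoots gave 461 FPKM in ethylene against 1165 FPKM in air in cbp20, and 503 FPKM in ethylene against 1358 FPKM in air in Col-0. The shoot levels were 2.53-fold lower in cbp20 and 2.70-fold lower in Col-0, and the root ratio of Col-0 fell just short of the limit (log2 ratio -0.58).

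PIP1-1 (AT3G61430) and PIP1-5 (AT4G23400) passed the limit in cbp20 shoots alone. PIP1-1 was measured at 3834 FPKM in ethylene and 3688 FPKM in air in cbp20 roots, and at 3509 FPKM in ethylene and 3879 FPKM in air in Col-0 roots. Its shoot levels were 784 FPKM in ethylene and 1250.1 FPKM in air in cbp20, and 854 FPKM in ethylene and 1171 FPKM in air in Col-0. PIP1-1 was thus 1.60-fold lower in cbp20 shoots and 1.37-fold lower in Col-0 shoots, with root log2 ratios of 0.06 in cbp20 and -0.14 in Col-0. For PIP1-5, roots held 658 FPKM in ethylene and 706 FPKM in air in cbp20 and 723 FPKM in ethylene and 864 FPKM in air in Col-0. In shoots of cbp20 it had 589 FPKM in ethylene and 952 FPKM in air, and in shoots of Col-0 769.8 FPKM in ethylene and 999 FPKM in air. PIP1-5 was 1.62-fold lower in cbp20 shoots and 1.30-fold lower in Col-0 shoots, and whether the genotypes differ there was not tested.

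Among the PIP2 genes, PIP2-7 (AT4G35100, chr4:16708552-16710289 in the TAIR10 coordinates of the tables) combined a high level with a low ratio everywhere. Its product is known to bind the syntaxin SYP61 and the stress protein TSPO, which guide its traffic and breakdown. In roots PIP2-7 stood at 491 FPKM in ethylene and 1193 FPKM in air in cbp20, and at 491 FPKM in ethylene and 1367 FPKM in air in Col-0. For shoots the values were 482 FPKM in ethylene and 1731 FPKM in air in cbp20, and 593 FPKM in ethylene and 2353 FPKM in air in Col-0. The difference was 2.43-fold in cbp20 roots, 2.79-fold in Col-0 roots, 3.59-fold in cbp20 shoots and 3.97-fold in Col-0 shoots. In air the level differed between the organs, and in ethylene all 4 values lay between 482 and 593 FPKM.

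PIP2-1 (AT3G53420), which acts in root water uptake, guard cells and lateral root emergence, was measured jointly with AT3G53410. PIP2-1 in roots was at 2572 FPKM in ethylene and 4491 FPKM in air in cbp20 and at 1983 FPKM in ethylene and 3927 FPKM in air in Col-0. In shoots it stood at 797 FPKM in ethylene and 2515 FPKM in air in cbp20, and at 691 FPKM in ethylene and 2288 FPKM in air in Col-0. The joint value was 1.75-fold lower in cbp20 roots, 1.98-fold lower in Col-0 roots, 3.16-fold lower in cbp20 shoots and 3.31-fold lower in Col-0 shoots, and the part of each gene in it was not separated.

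The adjacent genes PIP2-2 and PIP2-3 were not counted alike. PIP2-3 (AT2G37180), known as the drought-responsive gene RD28, was lower in every table. PIP2-3 had 229 FPKM in ethylene against 488 FPKM in air in cbp20 roots, and 183 FPKM in ethylene against 487 FPKM in air in Col-0 roots. The shoot values were 36.0 FPKM in ethylene and 104 FPKM in air in cbp20, and 39.2 FPKM in ethylene and 84.8 FPKM in air in Col-0. Its level was 2.13-fold lower in cbp20 roots, 2.67-fold lower in Col-0 roots, 2.89-fold lower in cbp20 shoots and 2.17-fold lower in Col-0 shoots. PIP2-2 (AT2G37170), which carries a large part of water transport through root cells, was several times as abundant. PIP2-2 was measured at 2589.7 FPKM in ethylene and 2768 FPKM in air in cbp20 roots, and at 2615 FPKM in ethylene and 2860.1 FPKM in air in Col-0 roots. Shoots gave 649.9 FPKM in ethylene against 1043 FPKM in air in cbp20, and 763 FPKM in ethylene against 1021 FPKM in air in Col-0. PIP2-2 was 1.07-fold lower in cbp20 roots and 1.09-fold lower in Col-0 roots, and it passed the limit in cbp20 shoots (1.60-fold) but not in Col-0 shoots (1.34-fold). The coding sequences of the pair are similar enough for reads to be shared, and the part of such reads in either value was not tested.

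PIP2-6 (AT2G39010), known from the veins of leaves, was low in roots and high in shoots. For PIP2-6, roots held 17.0 FPKM in ethylene and 50.3 FPKM in air in cbp20 and 7.52 FPKM in ethylene and 20.1 FPKM in air in Col-0. Its shoot levels were 197 FPKM in ethylene and 423 FPKM in air in cbp20, and 207 FPKM in ethylene and 411 FPKM in air in Col-0. The level in ethylene was 2.96-fold lower in cbp20 roots, 2.67-fold lower in Col-0 roots, 2.15-fold lower in cbp20 shoots and 1.99-fold lower in Col-0 shoots. The log2 ratio in roots minus that in shoots was -0.46 in cbp20 and -0.43 in Col-0, and this difference was not tested.

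PIP2-4 (AT5G60660), a root aquaporin that also passes hydrogen peroxide, went the other way in shoots. In roots PIP2-4 stood at 761 FPKM in ethylene and 683 FPKM in air in cbp20, and at 868 FPKM in ethylene and 1066 FPKM in air in Col-0. In shoots of cbp20 it had 627 FPKM in ethylene and 418 FPKM in air, and in shoots of Col-0 808 FPKM in ethylene and 493 FPKM in air. It was 1.5-fold higher in cbp20 shoots, at the limit itself and under it with a pseudocount of 1 FPKM, and 1.64-fold higher in Col-0 shoots, while its root log2 ratios were 0.16 in cbp20 and -0.30 in Col-0. It was the single PIP gene counted as higher in any table.

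The rare PIP2 genes were PIP2-5 (AT3G54820) and PIP2-8 (AT2G16850). PIP2-5 in roots was at 2.88 FPKM in ethylene and 4.00 FPKM in air in cbp20 and at 3.43 FPKM in ethylene and 2.96 FPKM in air in Col-0. For shoots the values were 3.87 FPKM in ethylene and 13.3 FPKM in air in cbp20, and 4.89 FPKM in ethylene and 7.24 FPKM in air in Col-0. PIP2-5 passed the limit in cbp20 shoots alone, 3.43-fold lower. PIP2-8 had 1.84 FPKM in ethylene against 3.67 FPKM in air in cbp20 roots, and 2.82 FPKM in ethylene against 4.71 FPKM in air in Col-0 roots. In shoots it stood at 6.05 FPKM in ethylene and 6.57 FPKM in air in cbp20, and at 6.41 FPKM in ethylene and 10.4 FPKM in air in Col-0. PIP2-8, the closest relative of PIP2-7, was 1.99-fold lower in cbp20 roots, 1.67-fold lower in Col-0 roots and 1.63-fold lower in Col-0 shoots. At such levels a few reads weigh more, and the precision of these values is unknown.

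Summed over the 5 PIP1 genes, the level in ethylene was 85.5% of that in air in cbp20 roots, 71.9% in Col-0 roots, 49.4% in cbp20 shoots and 52.1% in Col-0 shoots. Summed over the 8 PIP2 genes, it was 68.9% in cbp20 roots, 63.2% in Col-0 roots, 44.8% in cbp20 shoots and 46.7% in Col-0 shoots. Over all 13 PIP genes, shoots held 5703 FPKM in ethylene and 12131 FPKM in air in cbp20, and 6502 FPKM in ethylene and 13169 FPKM in air in Col-0. Roots held 15136 FPKM in ethylene and 19583 FPKM in air in cbp20, and 13735 FPKM in ethylene and 20286 FPKM in air in Col-0. The ratio of the sums was lower in shoots than in roots in both genotypes, and that difference was not tested.

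**Figure D2:**
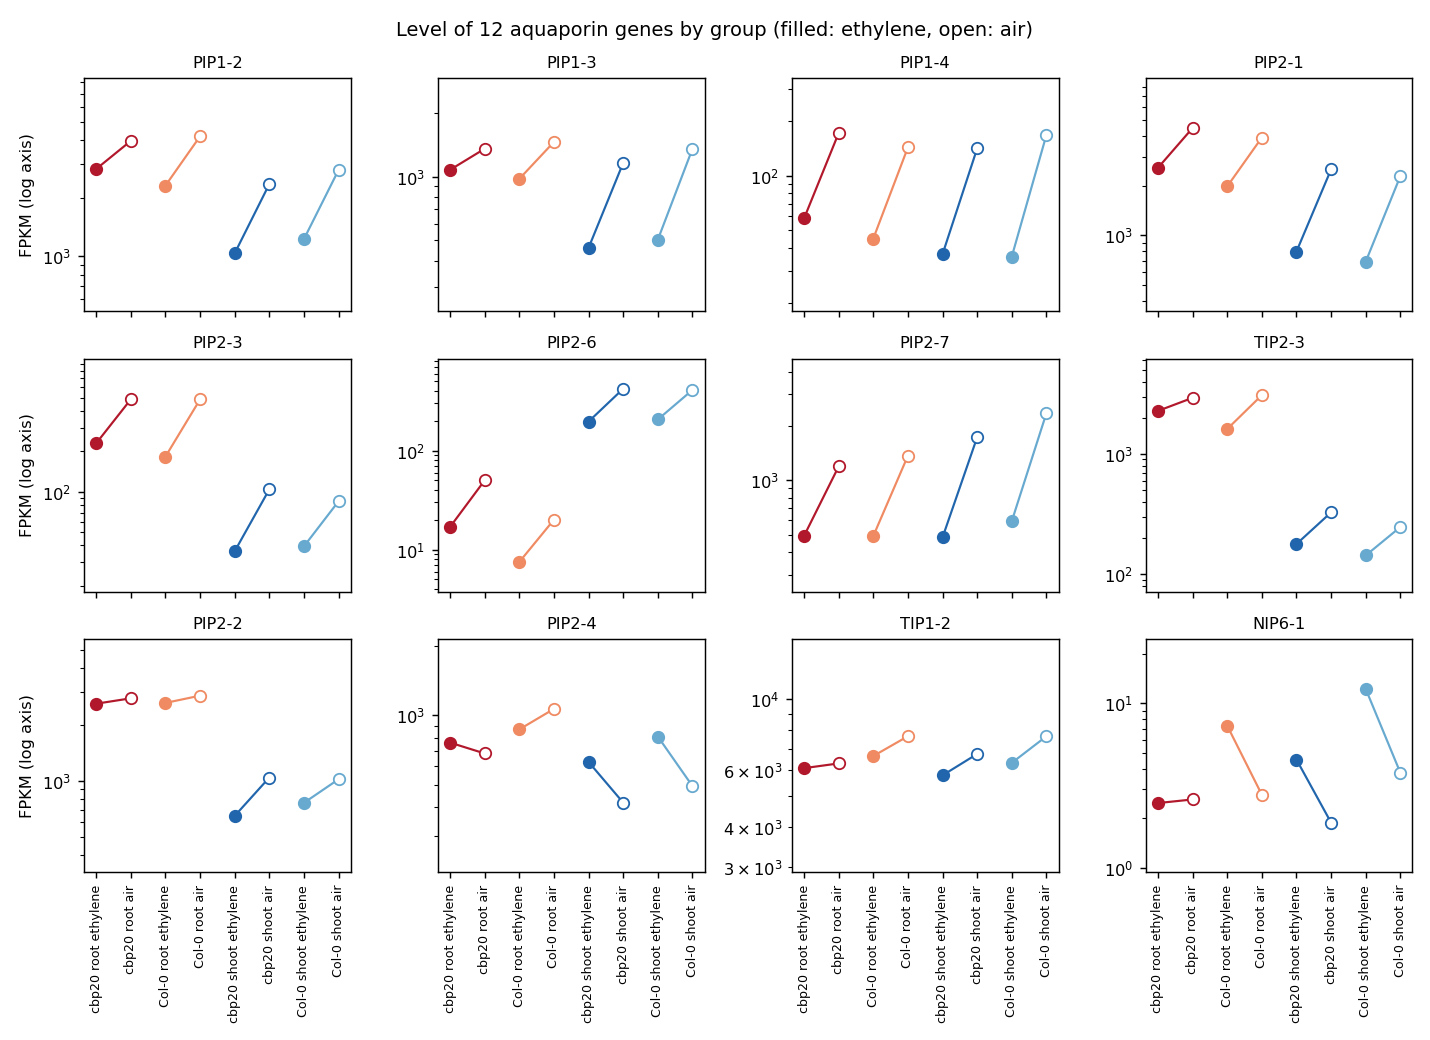
FPKM (log axis) of 12 aquaporin genes in the 8 groups, each point 1 value pooled by the authors over 2 libraries, with filled points for ethylene, open points for air and a line joining both groups of a table. PIP2-7 stands at 482 to 593 FPKM in all 4 ethylene groups, PIP2-2 is nearly level in roots, and PIP2-4 stands higher in ethylene in shoots.

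The vacuolar TIP genes include the most abundant members. TIP1-2 (AT3G26520) and TIP1-1 (AT2G36830) are the water channels of the large central vacuole of vegetative cells, and neither passed the limit in any table. TIP1-2 was measured at 6095 FPKM in ethylene and 6304 FPKM in air in cbp20 roots, and at 6647 FPKM in ethylene and 7659 FPKM in air in Col-0 roots. The shoot values were 5789 FPKM in ethylene and 6746 FPKM in air in cbp20, and 6329 FPKM in ethylene and 7657 FPKM in air in Col-0. TIP1-2 thus kept within 1.21-fold of its air level in all 4 tables. For TIP1-1, roots held 4216 FPKM in ethylene and 4742 FPKM in air in cbp20 and 3115 FPKM in ethylene and 4409 FPKM in air in Col-0. Shoots gave 1226 FPKM in ethylene against 1511 FPKM in air in cbp20, and 1285 FPKM in ethylene against 1246 FPKM in air in Col-0. The widest difference of TIP1-1 was in Col-0 roots, 1.42-fold lower in ethylene.

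TIP2-2 (AT4G17340) likewise stayed within the limit. In roots TIP2-2 stood at 6870.0 FPKM in ethylene and 6334 FPKM in air in cbp20, and at 6039 FPKM in ethylene and 7072 FPKM in air in Col-0. Its shoot levels were 707 FPKM in ethylene and 878 FPKM in air in cbp20, and 726 FPKM in ethylene and 819 FPKM in air in Col-0. Its close relative TIP2-3 (AT5G47450), a channel that also passes ammonia, was lower in 3 tables. TIP2-3 in roots was at 2281 FPKM in ethylene and 2929 FPKM in air in cbp20 and at 1613 FPKM in ethylene and 3082 FPKM in air in Col-0. In shoots of cbp20 it had 179 FPKM in ethylene and 327 FPKM in air, and in shoots of Col-0 144 FPKM in ethylene and 247 FPKM in air. TIP2-3 was 1.91-fold lower in Col-0 roots, 1.83-fold lower in cbp20 shoots and 1.72-fold lower in Col-0 shoots, and 1.28-fold lower in cbp20 roots, under the limit.

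TIP2-1 (AT3G16240), an ammonia and water channel of the vacuole, had 1 value that stood apart from the other 7. TIP2-1 had 671 FPKM in ethylene against 51345 FPKM in air in cbp20 roots, and 519 FPKM in ethylene against 880.2 FPKM in air in Col-0 roots. For shoots the values were 1408 FPKM in ethylene and 2490.1 FPKM in air in cbp20, and 1661 FPKM in ethylene and 2490.0 FPKM in air in Col-0. The value of 51345 FPKM in air in cbp20 roots was 33.5 times the median of the 8 groups, and the next highest such ratio among the members was 8.33, for TIP3-2. The log2 ratio of -6.26 in cbp20 roots rests on that value, and without TIP2-1 9 members were lower in cbp20 roots, in place of 10. Among all loci, 64 reached 100 FPKM with a highest value 20 or more times their median, and 11 of these had it in cbp20 root air. AT3G16250, which lies in the same interval of the tables, was at 0.92 FPKM in that group. Elsewhere TIP2-1 was 1.70-fold lower in Col-0 roots, 1.77-fold lower in cbp20 shoots and 1.5-fold lower in Col-0 shoots, where its log2 ratio of -0.58 fell just short of the limit and was not counted.

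TIP4-1 (AT2G25810), a root TIP that passes urea, was lower in shoots. TIP4-1 was measured at 71.3 FPKM in ethylene and 69.5 FPKM in air in cbp20 roots, and at 96.7 FPKM in ethylene and 136 FPKM in air in Col-0 roots. In shoots it stood at 6.10 FPKM in ethylene and 9.29 FPKM in air in cbp20, and at 4.78 FPKM in ethylene and 13.4 FPKM in air in Col-0. The shoot difference was 1.52-fold in cbp20 and 2.81-fold in Col-0, from low levels.

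The seed TIPs TIP3-1 and TIP3-2, which reside in the membrane of protein storage vacuoles and fade as seeds germinate, moved in opposite directions in shoots. For TIP3-1, roots held 3.48 FPKM in ethylene and 8.07 FPKM in air in cbp20 and 0.64 FPKM in ethylene and 7.18 FPKM in air in Col-0. The shoot values were 2.65 FPKM in ethylene and 16.9 FPKM in air in cbp20, and 1.77 FPKM in ethylene and 6.55 FPKM in air in Col-0. TIP3-1 (AT1G73190) was 2.32-fold lower in cbp20 roots, 11.2-fold lower in Col-0 roots, 6.39-fold lower in cbp20 shoots and 3.69-fold lower in Col-0 shoots. Seed storage markers stood lower in ethylene in 3 of the 4 tables too. The 4 markers summed in roots to 12.8 FPKM in ethylene and 14.8 FPKM in air in cbp20, and to 34.8 FPKM in ethylene and 103 FPKM in air in Col-0. In shoots their sum was 20.6 FPKM in ethylene and 74.6 FPKM in air in cbp20, and 20.02 FPKM in ethylene and 152 FPKM in air in Col-0. Of the 4, the cruciferin genes CRA1 and CRU3 and the oleosin gene OLEO1 were lower in Col-0 roots and in both shoot tables, CRU3 was higher in cbp20 roots, and SESA1 stayed at 1.64 FPKM or less. Their part in the TIP3-1 difference was not tested.

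TIP3-2 (AT1G17810) instead stood higher in ethylene. In roots TIP3-2 stood at 3.52 FPKM in ethylene and 1.22 FPKM in air in cbp20, and at 1.65 FPKM in ethylene and 1.72 FPKM in air in Col-0. Shoots gave 31.3 FPKM in ethylene against 3.98 FPKM in air in cbp20, and 28.5 FPKM in ethylene against 5.67 FPKM in air in Col-0. It was 7.85-fold higher in cbp20 shoots and 5.02-fold higher in Col-0 shoots, and between 98.4% and 99.1% of all loci had a lower ratio there. In roots it was 2.88-fold higher in cbp20, with a log2 ratio of -0.06 in Col-0. The gene AT1G17820, which shares the interval of the tables with TIP3-2, did not move with it, at 2.82 FPKM in ethylene and 3.86 FPKM in air in cbp20 shoots and 2.51 FPKM in ethylene and 4.40 FPKM in air in Col-0 shoots.

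Without TIP2-1, the 9 other TIP genes summed in ethylene to 95.8% of their air level in cbp20 roots, 78.3% in Col-0 roots, 83.6% in cbp20 shoots and 85.2% in Col-0 shoots. These shares lay above those of the PIP1 and PIP2 sums in all 4 tables. With TIP2-1 included, the shares were 28.2% in cbp20 roots, 77.6% in Col-0 roots, 78.0% in cbp20 shoots and 81.5% in Col-0 shoots. The share in cbp20 roots, which rests on the air value of TIP2-1, then lay below those of the PIP1 and PIP2 sums.

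**Figure D3:**
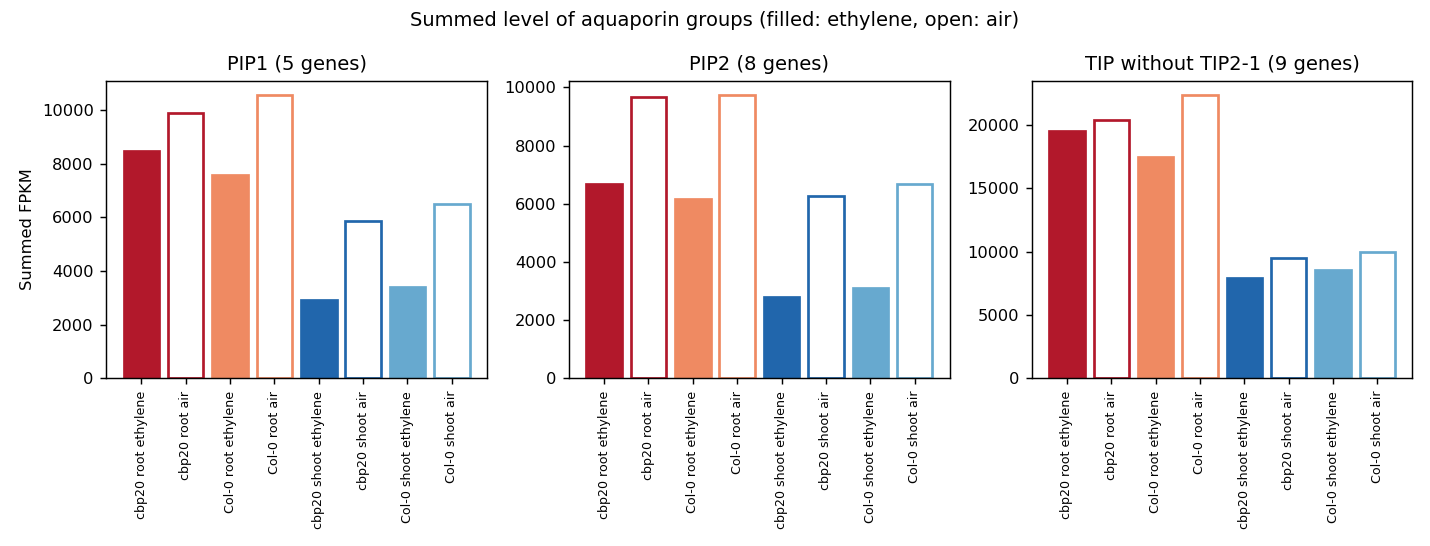
Summed FPKM of the 5 PIP1 genes, the 8 PIP2 genes and the 9 TIP genes other than TIP2-1 in the 8 groups, with filled bars for ethylene and open bars for air and no error bars, since each bar is a sum of pooled values. In shoots the PIP2 sum in ethylene was 44.8% of that in air in cbp20 and 46.7% in Col-0, and the TIP sum was 83.6% in cbp20 and 85.2% in Col-0.

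The NIP genes were rarer than the leading PIP and TIP genes, at 254 FPKM or less, and their responses were mixed. NIP1-1 (AT4G19030), an arsenite-permeable channel, was given jointly with AT4G19040. NIP1-1 in roots was at 104 FPKM in ethylene and 213 FPKM in air in cbp20 and at 103 FPKM in ethylene and 254 FPKM in air in Col-0. Its shoot levels were 25.8 FPKM in ethylene and 35.9 FPKM in air in cbp20, and 25.8 FPKM in ethylene and 47.8 FPKM in air in Col-0. The joint value was 2.05-fold lower in cbp20 roots, 2.47-fold lower in Col-0 roots and 1.85-fold lower in Col-0 shoots. Its relative NIP1-2 (AT4G18910), a carrier of aluminium malate, was lower in roots to a like extent. NIP1-2 had 11.2 FPKM in ethylene against 23.6 FPKM in air in cbp20 roots, and 8.62 FPKM in ethylene against 18.9 FPKM in air in Col-0 roots. In shoots of cbp20 it had 24.6 FPKM in ethylene and 39.1 FPKM in air, and in shoots of Col-0 21.4 FPKM in ethylene and 29.0 FPKM in air. NIP1-2 was 2.11-fold lower in cbp20 roots, 2.19-fold lower in Col-0 roots and 1.59-fold lower in cbp20 shoots.

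The boric acid channels NIP5-1 (AT4G10380), which takes up boron in roots, and NIP6-1 (AT1G80760), which distributes it to young shoot tissue, were counted as lower in no table. NIP5-1 was measured at 93.2 FPKM in ethylene and 53.2 FPKM in air in cbp20 roots, and at 75.3 FPKM in ethylene and 59.9 FPKM in air in Col-0 roots. For shoots the values were 37.1 FPKM in ethylene and 25.0 FPKM in air in cbp20, and 18.7 FPKM in ethylene and 21.3 FPKM in air in Col-0. NIP5-1 passed the limit in cbp20 roots, 1.75-fold higher, and was 1.26-fold higher in Col-0 roots. For NIP6-1, roots held 2.48 FPKM in ethylene and 2.61 FPKM in air in cbp20 and 7.31 FPKM in ethylene and 2.79 FPKM in air in Col-0. In shoots it stood at 4.55 FPKM in ethylene and 1.89 FPKM in air in cbp20, and at 12.2 FPKM in ethylene and 3.79 FPKM in air in Col-0. NIP6-1 was 2.62-fold higher in Col-0 roots, 2.42-fold higher in cbp20 shoots and 3.23-fold higher in Col-0 shoots, and its log2 ratio in cbp20 roots was -0.07. In cbp20 roots the log2 ratio of NIP6-1 was thus 1.46 below that in Col-0 roots, and at levels of 2.48 to 7.31 FPKM that difference was not tested.

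NIP2-1 (AT2G34390), a lactic acid channel induced by lack of oxygen, was higher in all 4 tables. In roots NIP2-1 stood at 2.06 FPKM in ethylene and 0.56 FPKM in air in cbp20, and at 2.15 FPKM in ethylene and 0.65 FPKM in air in Col-0. The shoot values were 1.14 FPKM in ethylene and 0.65 FPKM in air in cbp20, and 2.72 FPKM in ethylene and 1.39 FPKM in air in Col-0. It was 3.68-fold higher in cbp20 roots and 3.31-fold higher in Col-0 roots, 1.75-fold higher in cbp20 shoots and 1.96-fold higher in Col-0 shoots, always between 0.56 and 2.72 FPKM. The gene AT2G34420, which shares the interval of NIP2-1, stood at 1104 to 2948 FPKM in the shoot groups. Its part in the NIP2-1 values was not tested. NIP3-1 (AT1G31885), an arsenite-permeable channel of roots, had no common direction. NIP3-1 in roots was at 5.69 FPKM in ethylene and 3.42 FPKM in air in cbp20 and at 9.19 FPKM in ethylene and 9.69 FPKM in air in Col-0. Shoots gave 1.23 FPKM in ethylene against 1.93 FPKM in air in cbp20, and 0.032 FPKM in ethylene against 0.33 FPKM in air in Col-0. NIP3-1 was 1.66-fold higher in cbp20 roots and 1.57-fold lower in cbp20 shoots, and in Col-0 shoots it lay under 1 FPKM.

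The counted SIP genes passed the limit in no table. SIP1-1 had 93.7 FPKM in ethylene against 108 FPKM in air in cbp20 roots, and 108 FPKM in ethylene against 128 FPKM in air in Col-0 roots. Its shoot levels were 64.6 FPKM in ethylene and 81.2 FPKM in air in cbp20, and 82.5 FPKM in ethylene and 91.8 FPKM in air in Col-0. SIP1-1 (AT3G04090), a water channel of the endoplasmic reticulum, thus had log2 ratios from -0.33 to -0.15. SIP2-1 was measured at 94.1 FPKM in ethylene and 78.8 FPKM in air in cbp20 roots, and at 86.3 FPKM in ethylene and 76.4 FPKM in air in Col-0 roots. In shoots of cbp20 it had 41.5 FPKM in ethylene and 32.1 FPKM in air, and in shoots of Col-0 22.5 FPKM in ethylene and 27.9 FPKM in air. SIP2-1 (AT3G56950) had log2 ratios from -0.31 to 0.37. The gene AT3G56940, which shares the interval of SIP2-1, stood at 292 to 556 FPKM in the shoot groups, and its part in the SIP2-1 values was not tested. The 4 rows of SIP1-2 (AT5G18290) lay between 0 and 18.9 FPKM and did not move together. Their sum in roots was 33.4 FPKM in ethylene and 22.0 FPKM in air in cbp20, and 26.4 FPKM in ethylene and 22.3 FPKM in air in Col-0. In shoots the rows summed to 10.6 FPKM in ethylene and 12.7 FPKM in air in cbp20, and to 17.4 FPKM in ethylene and 14.6 FPKM in air in Col-0.

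The organs were compared by setting root over shoot in 4 settings, cbp20 ethylene, cbp20 air, Col-0 ethylene and Col-0 air, where members at least 2-fold apart in the same direction in all 4 were counted. The tables were normalized separately, so levels set across them are a description, and the median log2 ratio of root over shoot over all loci was 0.02 to 0.09. By that rule 10 of 28 members were higher in roots, against 11.1% of all loci, and 2 were higher in shoots, against 11.7%. The root members were PIP1-1, PIP2-2, PIP2-3, TIP1-1, TIP2-2, TIP2-3, TIP4-1, NIP1-1, NIP5-1 and SIP2-1, and the shoot members were PIP2-6 and TIP3-2.

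The root excess of TIP2-3 was 12.8-fold in cbp20 ethylene, 8.95-fold in cbp20 air, 11.2-fold in Col-0 ethylene and 12.5-fold in Col-0 air. TIP2-2 was 9.72-fold higher in roots in cbp20 ethylene, 7.21-fold in cbp20 air, 8.32-fold in Col-0 ethylene and 8.63-fold in Col-0 air. TIP4-1 reached 11.7-fold in cbp20 ethylene, 7.47-fold in cbp20 air, 20.2-fold in Col-0 ethylene and 10.12-fold in Col-0 air. All 3 are vacuolar channels. On the other side, PIP2-6 was 11.6-fold higher in shoots in cbp20 ethylene, 8.41-fold in cbp20 air, 27.5-fold in Col-0 ethylene and 20.4-fold in Col-0 air. TIP1-2 was level between organs, at 0.93 to 1.05 times the shoot level in roots.

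The order of levels also differed between the organs. In cbp20 roots in ethylene TIP2-2 led with 6870 FPKM, followed by TIP1-2, TIP1-1 and PIP1-1, and in Col-0 roots in ethylene TIP1-2 led with 6647 FPKM, followed by TIP2-2, PIP1-1 and TIP1-1. TIP1-2 led in all 4 shoot groups, and the next member in shoots in ethylene, TIP2-1 in both genotypes, stood at 1408 FPKM in cbp20 and 1661 FPKM in Col-0. Which neighbours in these orders differ beyond their spread cannot be said from pooled values.

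**Figure D4:**
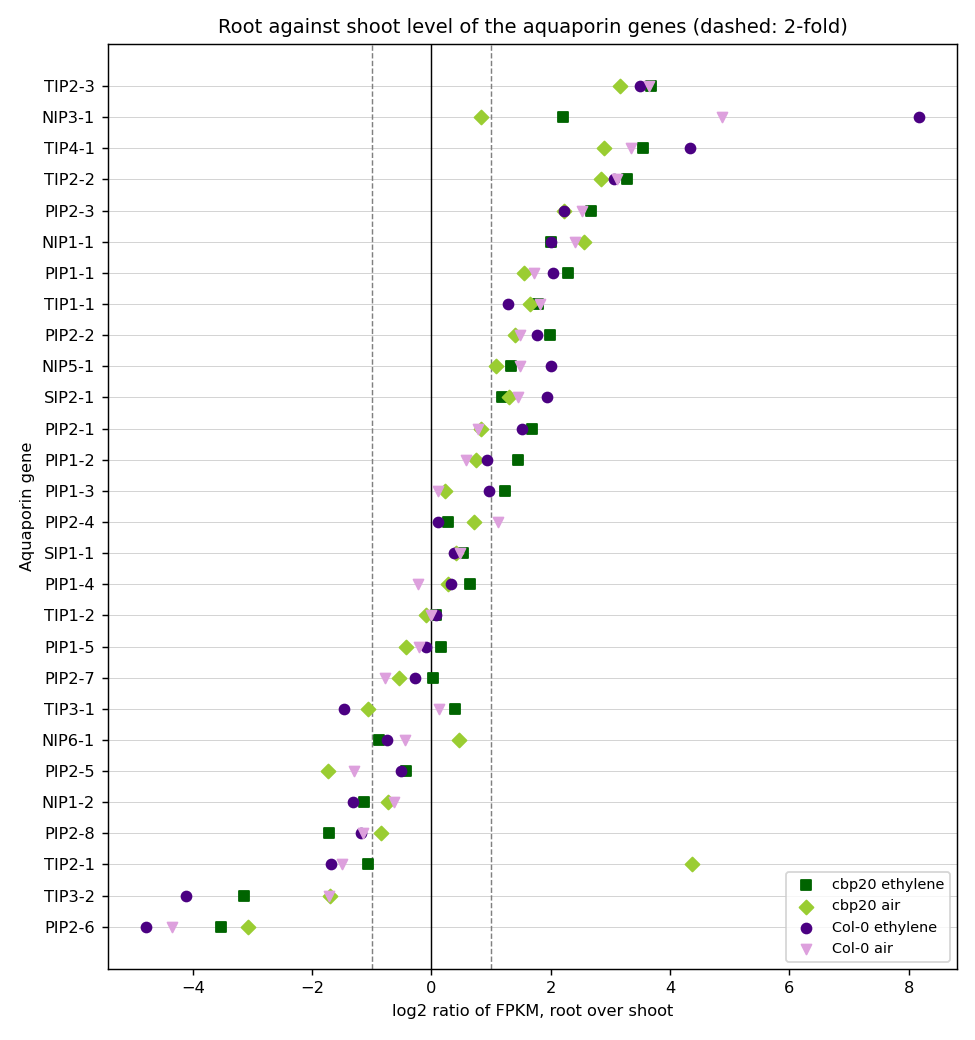
Log2 ratio of FPKM in root over shoot (horizontal axis) for the 28 members with 1 FPKM or more in an organ in all 4 settings, sorted by the median of the settings, where each symbol is 1 setting and dashed lines mark 2-fold. TIP2-3, TIP4-1 and TIP2-2 lie to the right throughout, PIP2-6 and TIP3-2 to the left, and the cbp20 air value of TIP2-1 stands apart from its other 3.

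Between genotypes the levels of most members were close. At least 1.5-fold in the same direction in ethylene and in air, 1 of 28 members in roots was higher in cbp20 (7.21% of all loci) and 1 was lower (4.70%). In shoots 1 of 29 members was higher in cbp20 (5.79% of all loci) and 2 were lower (6.81%). PIP2-6 was the higher member in roots, at 17.0 FPKM in cbp20 against 7.52 FPKM in Col-0 in ethylene, and at 50.3 FPKM in cbp20 against 20.1 FPKM in Col-0 in air. PIP2-6 was shoot-biased, and the sum of the 6 shoot markers, mostly CAB1 and RBCS1A, was also higher in cbp20 roots. The sum was 457 FPKM in cbp20 roots against 96.5 FPKM in Col-0 roots in ethylene, and 348 FPKM against 168.9 FPKM in air. In air AS1 was lower in cbp20 roots than in Col-0 roots, at 5.49 FPKM against 7.03 FPKM. HLS1 was lower there too, at 2.26 FPKM against 2.41 FPKM. AS1 and HLS1 were higher in cbp20 roots in ethylene, and STM and CUC2 stayed under 1 FPKM in all root groups. The part of the markers in the PIP2-6 difference was not tested. The other members counted were at low levels, namely NIP3-1, lower in cbp20 roots and higher in cbp20 shoots, and NIP2-1 and NIP6-1, lower in cbp20 shoots. In roots the log2 ratio of ethylene to air was nearer 0 in cbp20 than in Col-0 for 20 of 29 members, against 55.1% of 16636 loci. In shoots this held for 11 of 28 members, against 50.2% of 16615 loci. This count was chosen after the values had been seen. The members lower in roots of Col-0 but not of cbp20 were 2 of 29, PIP1-2 and TIP2-3. Over all loci, 15.4% were lower in Col-0 roots and 7.01% in roots of both genotypes. The share of loci lower in Col-0 alone was not computed. PIP1-2 had a root log2 ratio of -0.49 in cbp20 and -0.85 in Col-0, and TIP2-3 of -0.36 in cbp20 and -0.93 in Col-0. Over 1341 loci at 100 FPKM or more in all 4 root groups, the median absolute difference of the log2 ratio between the genotypes was 0.15 and the 95th percentile 0.47. The differences of 0.37 for PIP1-2 and 0.57 for TIP2-3 stood on either side of that percentile, and neither was tested.

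Genes that work beside the aquaporins were read from lists. Of 11 proton pump and potassium channel genes, which build the osmotic gradients that water follows, 10 could be counted. None of the 10 was higher or lower in roots of either genotype, against 13.5 to 15.8% of all loci in each direction. In shoots 2 were lower in each genotype, next to 21.4% of all loci in cbp20 and 21.7% in Col-0. KC1, a subunit of inward potassium channels, was among them in both, at 16.2 FPKM in ethylene and 26.6 FPKM in air in cbp20 shoots and 11.7 FPKM in ethylene and 22.5 FPKM in air in Col-0 shoots. The other lower member was the inward potassium channel gene AKT1 in cbp20 and the outward channel gene GORK in Col-0. AHA2, the main proton pump gene of roots, stood at 722 FPKM in ethylene and 814 FPKM in air in cbp20 roots, and at 1021 FPKM in ethylene and 1065 FPKM in air in Col-0 roots.

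The 3 boron exporter genes were read beside the boric acid channels. In roots 1 of 3 was higher and 1 lower in each genotype, and in shoots 2 of 3 were lower in cbp20, while in Col-0 1 of 2 counted was higher and 1 lower. Over all loci, 13.5 to 15.8% were higher and 15.2 to 21.7% lower, and shares of so few genes were not read against them. BOR1, which loads boron into the xylem, was higher in roots of both genotypes, at 148 FPKM in ethylene and 58.4 FPKM in air in cbp20 and 129 FPKM in ethylene and 49.8 FPKM in air in Col-0. BOR4, an exporter that confers tolerance to excess boron, was lower in roots of both, at 3.13 FPKM in ethylene and 12.3 FPKM in air in cbp20 and 1.49 FPKM in ethylene and 3.69 FPKM in air in Col-0. BOR2, an exporter that supports root elongation when boron is scarce, was lower in shoots of both, at 57.1 FPKM in ethylene and 100.3 FPKM in air in cbp20 and 22.6 FPKM in ethylene and 54.7 FPKM in air in Col-0.

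Of 7 genes for the traffic and turnover of PIP proteins, 1 was higher in each root table, RMA1 in cbp20 and RMA3 in Col-0, and none was lower. That count is close to the 13.5% of all loci in cbp20 roots and 15.8% in Col-0 roots. Both encode ubiquitin ligases of the endoplasmic reticulum. In shoots TSPO was lower in both genotypes, at 32.9 FPKM in ethylene and 92.8 FPKM in air in cbp20 and 14.8 FPKM in ethylene and 54.2 FPKM in air in Col-0, and RMA3 was higher in Col-0 alone. These counts of 1 of 7 lay near or under the shares over all loci.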

How the data were processed

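Reads were mapped by the authors with TopHat2 2.0.9 against TAIR10, and Cuffdiff 2.2.1 gave the expression values, per the methods and the submitters' processing notes. The deposited values used here are FPKM, 1 per gene locus and group, pooled by the authors over 2 libraries, in 4 tables that were each normalized separately. Library depths are not given in the sources used, so no interval could be set. Also in the tables are the authors' own fold changes and p-values, which were left unused. Of 35814 loci, 1729 name no gene and 2952 share a name with another locus, which left 31133 for the background, 1632 of which join several genes.

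Ratios of ethylene to air were computed in Python 3.11.15 with no pseudocount, counted at 1.5-fold with 1 FPKM or more in either group, and the counting was tested on simulated data. Promoter windows and coding sequences came from RefSeq's TAIR10.1, in whose annotation 24700 single-gene loci were found, all overlapping the interval of the tables and 15.0% with the same ends. The longest coding sequence of each gene was aligned end to end with Biopython, and gaps counted as differences. Alternatives were a 2-fold limit, other minimum levels, a pseudocount of 1, centring, and leaving out joined loci. All members with 10 FPKM or more, or past 1.5-fold in any table, were named with all 8 values, SIP1-2 as the sum of its rows. The members, lists and motifs were chosen with earlier results of these data known. One further gene list is not reported here.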

Additional observations from a re-analysis of the deposited data

How the results depend on the processing

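No paired analysis was possible because the tables hold 1 pooled value per group, and for the same reason no replicate could be left out. With a limit of 2-fold in place of 1.5-fold, 7 members were lower in Col-0 roots and 9 in cbp20 shoots, and 2 members were higher in Col-0 shoots, 2 in cbp20 roots and 2 in cbp20 shoots. With 4-fold in place of 2-fold between organs, 4 members were higher in roots and 1 in shoots. A minimum of 1 FPKM in both groups left 1 member higher in Col-0 roots. A pseudocount of 1 left 2 members higher in cbp20 shoots and took 5 member ratios under the limit, with log2 ratios of 0.58 for PIP2-4, 0.37 for NIP2-1, -0.39 for NIP3-1 and -0.54 for TIP4-1 in cbp20 shoots and -0.58 for PIP2-8 in Col-0 roots. Leaving out the joined loci of PIP2-1 and NIP1-1 moved the median log2 ratio to -0.30 in Col-0 roots, where 2 fewer members were counted. A minimum of 100 FPKM in either group, chosen after seeing the data, left 0 members higher in Col-0 roots, 0 in cbp20 roots, 1 in Col-0 shoots and 1 in cbp20 shoots, with 7 lower in Col-0 shoots and 6 in cbp20 roots. At that minimum the median log2 ratio was -0.33 in cbp20 roots and -0.85 in cbp20 shoots. The medians stayed below 0 under every alternative run, and counts under the other alternatives stayed within 1.5 times their value. Leaving out TIP2-1 or PIP2-3, or adding SIP1-2 as the sum of its rows, all chosen after seeing the data, moved no count beyond that. A change of the median was taken as a move at 0.1 or more on the log2 scale. Depth is unknown, so the counting error of members at a few FPKM could not be given.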
